A study of Mus musculus with 10 samples.

Results

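The genes described here are Rspo3, Wnt2 and Wnt9b, the endothelial signals of the Wnt pathway that are known to set liver zonation. They were chosen by that role, with earlier results of these data known, as 3 of the 55385 genes listed in each library. All 3 passed the filter on low counts that left 15043 genes for testing. RNA was sequenced from hepatic endothelial cells of mice, in 5 libraries labelled Alk1-HEC-KO (genotype KO in the labels) and 5 labelled Control (genotype WT). Non-parenchymal cells were taken from a Nycodenz gradient, and beads against CD146, the product of Mcam, then pulled out the endothelial cells. Not given in the sources used here are the promoter that drove the deletion of Alk1 (Acvrl1, an endothelial receptor of BMP ligands), the exons lost and the age of the mice. Nothing in the labels ties each library to an animal of its own, so p-values measure only how these samples spread, and that spread may be technical.

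Wnt ligands are secreted, lipid-modified proteins that bind Frizzled receptors together with the co-receptors Lrp5 and Lrp6 and stabilise beta-catenin in the receiving cell. R-spondins bind Lgr receptors and remove the ubiquitin ligases Rnf43 and Znrf3, which otherwise clear Frizzled from the cell surface, so that a cell responds more strongly to the Wnt it receives. In the liver, endothelial cells of the central vein and the adjoining sinusoids are known to make these signals, and the hepatocytes around the central vein respond with the pericentral set of metabolic enzymes, while periportal hepatocytes receive little of them.

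Each library held between 23489494 and 23602771 estimated counts. Acvrl1 went against its label. It stood at 239, 246, 250, 258 and 245 CPM (counts scaled to library size) in the libraries labelled Alk1-HEC-KO, against 124, 125, 136, 114 and 135 CPM in the Control libraries, a log2 fold change of 0.96 ± 0.05 (SE; edgeR adjusted p = 1.7e-07). All directions given here are therefore of libraries as labelled. Endothelial markers were abundant in both groups. The summed level of 11 pan-endothelial markers ran from 8000 to 9430 TPM (a level scaled to transcript length and to the library) in libraries labelled Alk1-HEC-KO and from 8350 to 9500 TPM in Control libraries, and no marker of that list was at 0. Single markers of the list moved both ways, with 4 higher and 4 lower at an edgeR adjusted p under 0.05. The log2 fold change was 0.9 ± 0.07 for Emcn (SE; edgeR adjusted p = 2.7e-06) and -0.75 ± 0.07 for Eng (1.4e-05). Mcam, the gene of the capture antigen, was itself higher, at 326 ± 24.5 TPM in libraries labelled Alk1-HEC-KO and 186 ± 30.6 TPM in Control libraries (SD, n = 5 each), without overlap. Its log2 fold change was 0.71 ± 0.09 (SE; edgeR adjusted p = 0.00011), and its part in the values given here was not tested. Of all genes tested, 19.7% were called at an adjusted p under 0.05, 9.08% of all tested being lower and 10.6% higher in the libraries labelled Alk1-HEC-KO.

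All 3 genes fell in the libraries labelled Alk1-HEC-KO, against the 9.08% of tested genes that were called lower, and Rspo3 fell most, Wnt9b next and Wnt2 least. Since the 3 genes were chosen with earlier results known, the shares of all tested genes given beside them are background and no test. For each of the 3, every library labelled Alk1-HEC-KO stood below every Control library, as it did for 7.05% of tested genes (8.4% had every library above). In bulk RNA, fewer cells that make a signal and less of its RNA per cell cannot be told apart.

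Rspo3 encodes R-spondin 3, the R-spondin of the central vein endothelium (ENSMUSG00000019880.10, minus strand of chromosome 10, bases 29452416 to 29535867 of GRCm38). It was at 4.74, 3.02, 5.49, 3.5 and 2.92 TPM in the libraries labelled Alk1-HEC-KO, against 146, 125, 128, 121 and 129 TPM in the Control libraries. The gap between the groups was wide, since the highest library labelled Alk1-HEC-KO reached 4.22% of the Control mean and the lowest 2.25%. These levels rest on 119 to 231 estimated counts per library labelled Alk1-HEC-KO and on 5293.66 to 6056 per Control library. The log2 fold change was -5.14 ± 0.17 (SE, n = 5 each; 35.2-fold lower, edgeR adjusted p = 3.6e-08), the sixth lowest of the 15043 genes tested and the fourth by p-value. By mean TPM among all 55385 genes listed, Rspo3 was gene 10930 in the libraries labelled Alk1-HEC-KO and gene 1153 in the Control libraries.

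Wnt9b encodes a canonical Wnt ligand that central vein endothelium is known to express (ENSMUSG00000018486.2, minus strand of chromosome 11, bases 103727364 to 103749821). It was at 5.23, 3.2, 6.44, 3.54 and 3.56 TPM in the libraries labelled Alk1-HEC-KO, against 69.8, 76.6, 42, 46.4 and 47.9 TPM in the Control libraries. The Control libraries differed among themselves, with libraries 1 and 2 above the other 3, yet the lowest of them lay far above the highest library labelled Alk1-HEC-KO. Relative to the Control mean, the libraries labelled Alk1-HEC-KO kept 5.67 to 11.4% of Wnt9b. The log2 fold change was -3.77 ± 0.25 (SE, n = 5 each; 13.6-fold lower, edgeR adjusted p = 9e-06), on 203 to 405 counts per library labelled Alk1-HEC-KO and 2853 to 4955 per Control library.

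Wnt2 encodes the Wnt ligand that sinusoidal and central vein endothelium share (ENSMUSG00000010797.6, minus strand of chromosome 6, bases 17988940 to 18030585). It was at 93.8, 51, 106, 55.9 and 67.7 TPM in the libraries labelled Alk1-HEC-KO, against 269, 291, 230, 293 and 251 TPM in the Control libraries. Wnt2 thus kept 19.1 to 39.6% of the Control mean, more than the other two genes in each library labelled Alk1-HEC-KO. Its log2 fold change was -1.93 ± 0.21 (SE, n = 5 each; 3.82-fold lower, edgeR adjusted p = 0.00018). With 1543 to 3178 counts in each library labelled Alk1-HEC-KO and 7476 to 9607 in each Control library, Wnt2 was the best counted of the 3.

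**Figure D1:**
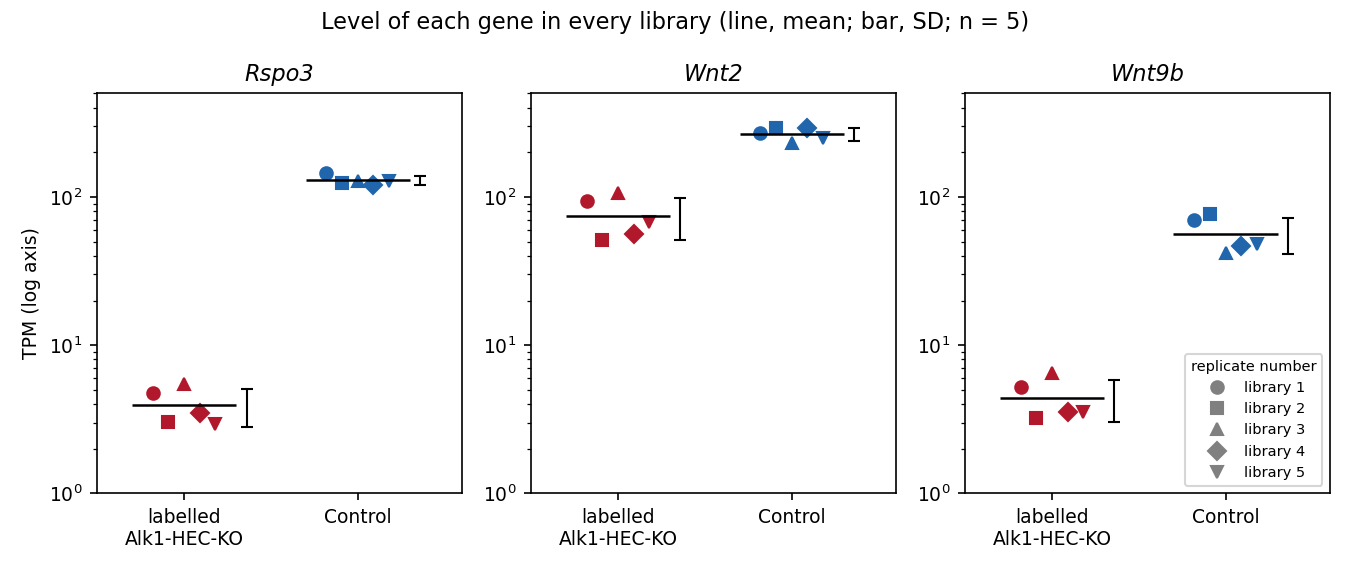
Level of Rspo3, Wnt2 and Wnt9b in every library, in TPM on a log axis, with 5 libraries labelled Alk1-HEC-KO on the left of each panel and 5 Control libraries on the right. Marker shapes give the library number, lines the group means and bars the SD, and no gene's groups overlap: Rspo3 lies between 2.92 and 5.49 TPM in libraries labelled Alk1-HEC-KO and between 121 and 146 TPM in Control libraries.

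Because the genes moved together, the stretches upstream of their transcript starts were searched for short motifs of factors that act in endothelium. RefSeq's promoter table for GRCm38.p6 matched 2 of the 3 genes, Wnt2 and Wnt9b, and Rspo3 was not matched. For Wnt2 the 110 bases before the GENCODE transcript start are shown (chr6:18030586-18030695), and for Wnt9b the 250 bases before it (chr11:103749822-103750071), both from the minus strand. Capitals mark matches to the GC-rich SMAD motifs GGCGCC and GGAGCC, with GGAGCC also marked in its reverse complement GGCTCC.
Wnt2: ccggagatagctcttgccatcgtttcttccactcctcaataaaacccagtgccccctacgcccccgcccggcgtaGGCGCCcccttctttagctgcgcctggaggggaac
Wnt9b: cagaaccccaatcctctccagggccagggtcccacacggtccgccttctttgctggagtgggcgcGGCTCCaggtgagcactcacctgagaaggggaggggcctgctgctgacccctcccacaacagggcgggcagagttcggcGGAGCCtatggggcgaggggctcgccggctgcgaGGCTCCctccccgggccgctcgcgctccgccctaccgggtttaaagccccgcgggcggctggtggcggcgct
The motifs searched on both strands were GATAA (the GATA core), GGCGCC (the SMAD palindrome), GGAGCC (the other GC-rich SMAD element), CAGAC (the SMAD box) and CCGGAA (an ETS core), none of which overlaps another in these stretches. The Wnt2 stretch held 1 GGCGCC, 35 bases before the transcript start, a motif found in 3.45% of the 32851 promoter windows over their first 110 bases. Those 110 bases are the part of each window farthest upstream of its RefSeq start. Over all 300 bases, 11.9% of windows held GGCGCC. In the Wnt9b stretch GGAGCC occurred 3 times, at 185, 106 and 72 bases before the start, and 26.0% of windows held it at least once over their first 250 bases. The other motifs had no match in the printed letters. For Wnt2 the RefSeq start lies 140 bases downstream of the GENCODE start, and the RefSeq promoter window, most of which is not printed, held 2 matches of GATAA and 1 of CAGAC outside the stretch shown. GATAA occurs in 25.4% and CAGAC in 49.6% of all windows over their 300 bases. Such matches describe letters and do not mark bound sites.

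The levels of the 3 genes changed their order between the groups. In each Control library Wnt2 was highest, Rspo3 next and Wnt9b lowest, and the ranges of the 3 genes over the Control libraries did not overlap. In the libraries labelled Alk1-HEC-KO, Wnt2 was again highest without overlap. Rspo3 averaged 3.93 ± 1.13 TPM there and Wnt9b 4.4 ± 1.39 TPM (SD, n = 5 each), and their ranges overlapped, although Rspo3 lay just under Wnt9b within each of these libraries.

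Ratios within a library, which do not depend on how libraries are scaled, showed that the 3 genes fell by different amounts. The ratio of Wnt2 to Rspo3 was 19.8, 16.9, 19.3, 16 and 23.2 in the libraries labelled Alk1-HEC-KO, against 1.84, 2.33, 1.8, 2.42 and 1.94 in the Control libraries. Rspo3 thus fell by 3.17 more than Wnt2 on the log2(TPM + 0.1) scale. The ratio of Wnt2 to Wnt9b was 17.9, 15.9, 16.4, 15.8 and 19 in the libraries labelled Alk1-HEC-KO, against 3.86, 3.8, 5.48, 6.31 and 5.24 in the Control libraries, so that Wnt9b fell by 1.78 more than Wnt2. Between the strongest movers, the ratio of Rspo3 to Wnt9b was 0.906, 0.942, 0.852, 0.987 and 0.819 in the libraries labelled Alk1-HEC-KO, against 2.1, 1.63, 3.04, 2.61 and 2.7 in the Control libraries, and Rspo3 fell by 1.39 more than Wnt9b. In none of these 3 ratios did the groups overlap. All 3 pairs were compared, and the exact two-sided permutation test gave p = 0.0079 for each pair, the smallest that 5 against 5 libraries allow, and 0.0079 after adjustment over the 3 pairs.

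**Figure D2:**
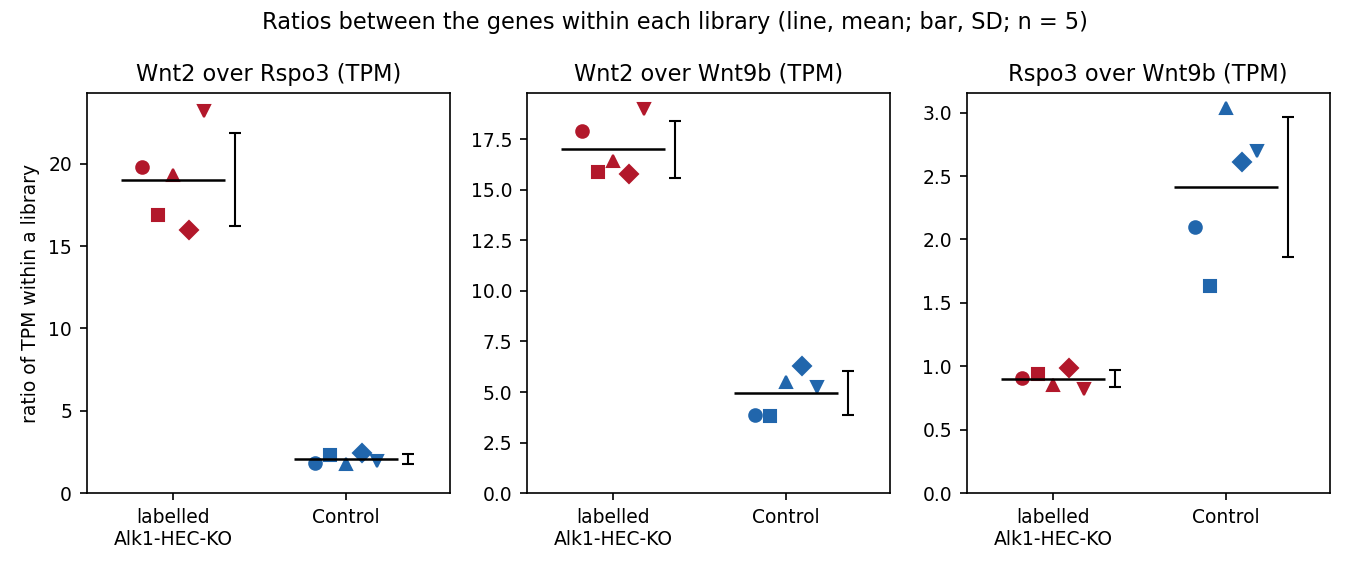
TPM ratios between the 3 genes within each library, on linear axes from 0, with libraries labelled Alk1-HEC-KO on the left of each panel and Control libraries on the right; points are libraries, shaped by library number as in the plot of levels, lines are means and bars the SD (n = 5). The ratio of Wnt2 to Rspo3 averages 19 ± 2.82 in libraries labelled Alk1-HEC-KO and 2.07 ± 0.288 in Control libraries, and the ratio of Rspo3 to Wnt9b averages 0.901 ± 0.0677 and 2.42 ± 0.555 in the same groups.

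The genes also varied together among the libraries labelled Alk1-HEC-KO. Library 3 was the highest of these 5 and library 1 the next for each of Rspo3, Wnt2 and Wnt9b, an order that 5.06% of the 10228 genes that averaged 5 CPM or more shared. Within those libraries the ratio of Wnt2 to Wnt9b moved little, its highest value being 1.2 times its lowest, while Wnt2 itself varied 2.07-fold and Wnt9b 2.01-fold. In the Control libraries the same ratio varied 1.66-fold, with Wnt2 varying 1.27-fold and Wnt9b 1.82-fold. The spread of Rspo3 was small in the Control libraries, where the coefficient of variation of its CPM was 4.68%, against 29% in the libraries labelled Alk1-HEC-KO.

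Set against their families, the 3 genes carried most of the measured Wnt and R-spondin RNA in Control cells and a smaller share in the libraries labelled Alk1-HEC-KO. Wnt2 and Wnt9b together made up 95.5, 90.7, 94.9, 93.1 and 89.5% of the summed TPM of the 19 Wnt ligand genes in the libraries labelled Alk1-HEC-KO, against 99.0, 98.8, 98.9, 99.2 and 98.9% in the Control libraries. The difference of -6.22 percentage points had p = 0.0079 in the exact two-sided permutation test, and the groups did not overlap. Since the Wnt2 and Wnt9b values given above enter this share, its p-value is no support apart from their fall. Within the family the share of Wnt9b was 5.17 ± 0.435% in the libraries labelled Alk1-HEC-KO and 17.1 ± 3.18% in the Control libraries (SD, n = 5 each), while that of Wnt2 was 87.6 ± 2.4% and 81.8 ± 3.26% in the same groups. The summed Wnt ligand level was 85.1 ± 25.4 TPM in the libraries labelled Alk1-HEC-KO and 327 ± 38 TPM in the Control libraries.

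Rspo3 made up 70.3, 43.3, 69.0, 57.8 and 26.1% of the summed TPM of the 4 R-spondin genes in the libraries labelled Alk1-HEC-KO, against 98.5, 96.5, 99.1, 98.8 and 98.2% in the Control libraries. The difference was -44.9 percentage points (exact two-sided permutation p = 0.0079) and was -28.6 points when CPM replaced TPM. This share is computed from the Rspo3 values given above, so its p-value is no support apart from their fall. Summed R-spondin RNA averaged 7.78 ± 2.03 TPM in the libraries labelled Alk1-HEC-KO and 132 ± 9.8 TPM in the Control libraries. Rspo1, the R-spondin with most of the remainder, was at 1.98, 3.95, 2.46, 2.55 and 8.28 TPM in the libraries labelled Alk1-HEC-KO, against 2.23, 4.56, 1.2, 1.45 and 2.36 TPM in the Control libraries. Those values overlapped, and the log2 fold change of Rspo1 was 0.45 ± 0.41 (SE; edgeR adjusted p = 0.51).

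No other Wnt ligand or R-spondin was called lower by edgeR or DESeq2. Of the other 20 genes, 7 were tested, 2 were higher and 5 were not called, with a median log2 fold change of 0.56 against 0 for all genes tested. The share of all genes tested that was called higher was 10.6%. Wnt1, Wnt3, Wnt3a, Wnt8a and Rspo4 had no count in any library. Wnt4 was at 1.31, 1.41, 2.2, 1.53 and 1.75 TPM in the libraries labelled Alk1-HEC-KO, against 0.559, 1.1, 0.832, 0.842 and 1.12 TPM in the Control libraries (log2 fold change 0.78 ± 0.21, edgeR adjusted p = 0.022). Its groups did not overlap, but the call was lost without library 3 labelled Alk1-HEC-KO (adjusted p = 0.062) and without Control libraries 4 and 5 together (adjusted p = 0.053). Wnt9a was at 1.24, 1.59, 1.19, 0.851 and 1.2 TPM in the libraries labelled Alk1-HEC-KO, against 0.421, 1.11, 0.489, 0.403 and 0.501 TPM in the Control libraries (0.95 ± 0.28, edgeR adjusted p = 0.031). Control library 2 overlapped the other group, and the call was lost on leaving out any of libraries 1, 2, 3 and 5 labelled Alk1-HEC-KO or Control libraries 1, 3, 4 and 5 (adjusted p 0.053 to 0.079, and 0.18 without Control libraries 4 and 5 together). Wnt2b, with a log2 fold change of 0.44 ± 0.29 (adjusted p = 0.34), and Wnt5a, with 0.64 ± 0.24 (adjusted p = 0.083), were not called by edgeR.

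The remaining genes of the pathway went both ways, and of those tested only Dkk3 had a log2 fold change below that of Wnt2. Of 4 genes for the release or inactivation of Wnt ligands, 2 were lower and 1 higher. Over all genes tested, 9.08% were lower and 10.6% higher. Wls, the carrier that brings Wnts to the cell surface, had a log2 fold change of -0.23 ± 0.06 (adjusted p = 0.012) and Porcn, the acyltransferase that lipidates them, of -0.36 ± 0.1 (adjusted p = 0.027). Both calls were fragile, that of Wls being lost in 4 of 20 alternatives (adjusted p up to 0.51, with limma on TPM) and that of Porcn in 11 (up to 0.18), among them those without library 1, 2, 3 or 4 labelled Alk1-HEC-KO or Control library 1, 2 or 4. Trabd2b, a metalloprotease that inactivates Wnts, was higher (1.19 ± 0.28, adjusted p = 0.0099), at low mean levels of 0.365 TPM in libraries labelled Alk1-HEC-KO and 0.149 TPM in Control libraries. Notum, which deacylates Wnts, was not called by edgeR (-1.28 ± 0.44, adjusted p = 0.06). Notum was called lower by DESeq2 (adjusted p = 0.046), with no filter (0.048) and without Control library 1 (0.022) or 5 (0.032).

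Among 5 R-spondin receptors and ligases, 3 were tested and Rnf43 alone was called, with a log2 fold change of -1.45 ± 0.23 (adjusted p = 0.00086), at mean levels of 0.615 TPM in libraries labelled Alk1-HEC-KO and 1.26 TPM in Control libraries. The Rnf43 call was lost with transcript length offsets (adjusted p = 0.1) and with limma on log2 TPM (0.1 to 0.14). Lgr4, the receptor of this group with the highest level, had a log2 fold change of -0.01 ± 0.14 (adjusted p = 0.98), and Lgr5 and Lgr6 were too low to test. Beside 9.08% lower and 10.6% higher among all genes tested, 5 of 14 Wnt receptors tested were lower and 2 higher. Their median was -0.06. The lower count ranged from 3 (with limma on log2 TPM, or without Control libraries 4 and 5) to 6 over the alternatives. The higher calls were Fzd4 (0.22 ± 0.06, adjusted p = 0.022), lost only without Control libraries 4 and 5 together (0.11), and Ror1 (0.79 ± 0.26, 0.048). Ror1 lost its call in 14 of 20 alternatives, among them those without library 1, 2, 3 or 5 labelled Alk1-HEC-KO or Control library 1, 3, 4 or 5 (adjusted p 0.067 to 0.11). Fzd6, one of the lower calls, lost it in 10 (0.052 to 0.23), among them those without library 1 or 2 labelled Alk1-HEC-KO or Control library 1, 4 or 5. The log2 fold change was -0.59 ± 0.07 for the co-receptor Lrp5 (adjusted p = 9.1e-05), -0.72 ± 0.13 for Fzd7 (0.002), -0.64 ± 0.12 for Reck (0.002) and -0.27 ± 0.07 for Fzd8 (0.013). The Fzd8 call was lost in 3 of 20 alternatives (adjusted p up to 0.23).

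Secreted and membrane antagonists also split, with 2 of 9 tested genes lower and 2 higher. Dkk3, a Dickkopf family member also used as a central vein marker, had a log2 fold change of -2.13 ± 0.17 (adjusted p = 1.2e-05), and Frzb, a secreted Frizzled-related protein, of -1.31 ± 0.25 (0.0028). For Dkk2, another Dickkopf family member, it was 1.85 ± 0.31 (0.0011) and for Apcdd1, a membrane-bound inhibitor, 0.78 ± 0.17 (0.0056). Mean levels were low for Dkk2, at 0.781 TPM in libraries labelled Alk1-HEC-KO and 0.202 TPM in Control libraries. In the same groups Apcdd1 averaged 1.74 and 0.885 TPM, and Frzb 0.855 and 2.01 TPM. Of 17 genes of the intracellular beta-catenin pathway, 3 were higher and none was called lower, led by Ctnnb1 (0.39 ± 0.07, adjusted p = 0.0022), which encodes beta-catenin, and Dvl1 (0.36 ± 0.07, 0.0031). Over all genes tested, 19.7% were called in either direction. The remaining call, Pygo1, averaged 0.132 TPM in libraries labelled Alk1-HEC-KO and 0.0584 TPM in Control libraries. That call was lost in 11 of 20 alternatives (adjusted p 0.051 to 0.26). DESeq2 called 1 gene of that list lower, and 5 of the 17 had an unadjusted p under 0.05.

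Common transcriptional targets of beta-catenin, read here in the endothelial cells themselves, gave 4 higher and 2 lower of 12 tested (median -0.05). The shares over all genes tested were 10.6% higher and 9.08% lower. Nkd1, a feedback inhibitor, had a log2 fold change of -0.56 ± 0.07 (adjusted p = 9.1e-05), and the feedback ligase Rnf43 is counted here again. Myc, a growth regulator, was higher (1.31 ± 0.17, adjusted p = 0.00022), as was Tnfrsf19 (1.13 ± 0.24, adjusted p = 0.0054). Axin2, the target most used as a readout, was at 1.18 ± 0.163 TPM in libraries labelled Alk1-HEC-KO and 1.45 ± 0.252 TPM in Control libraries (SD, n = 5 each), and its log2 fold change of -0.32 ± 0.15 was not called (adjusted p = 0.17).

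**Figure D3:**
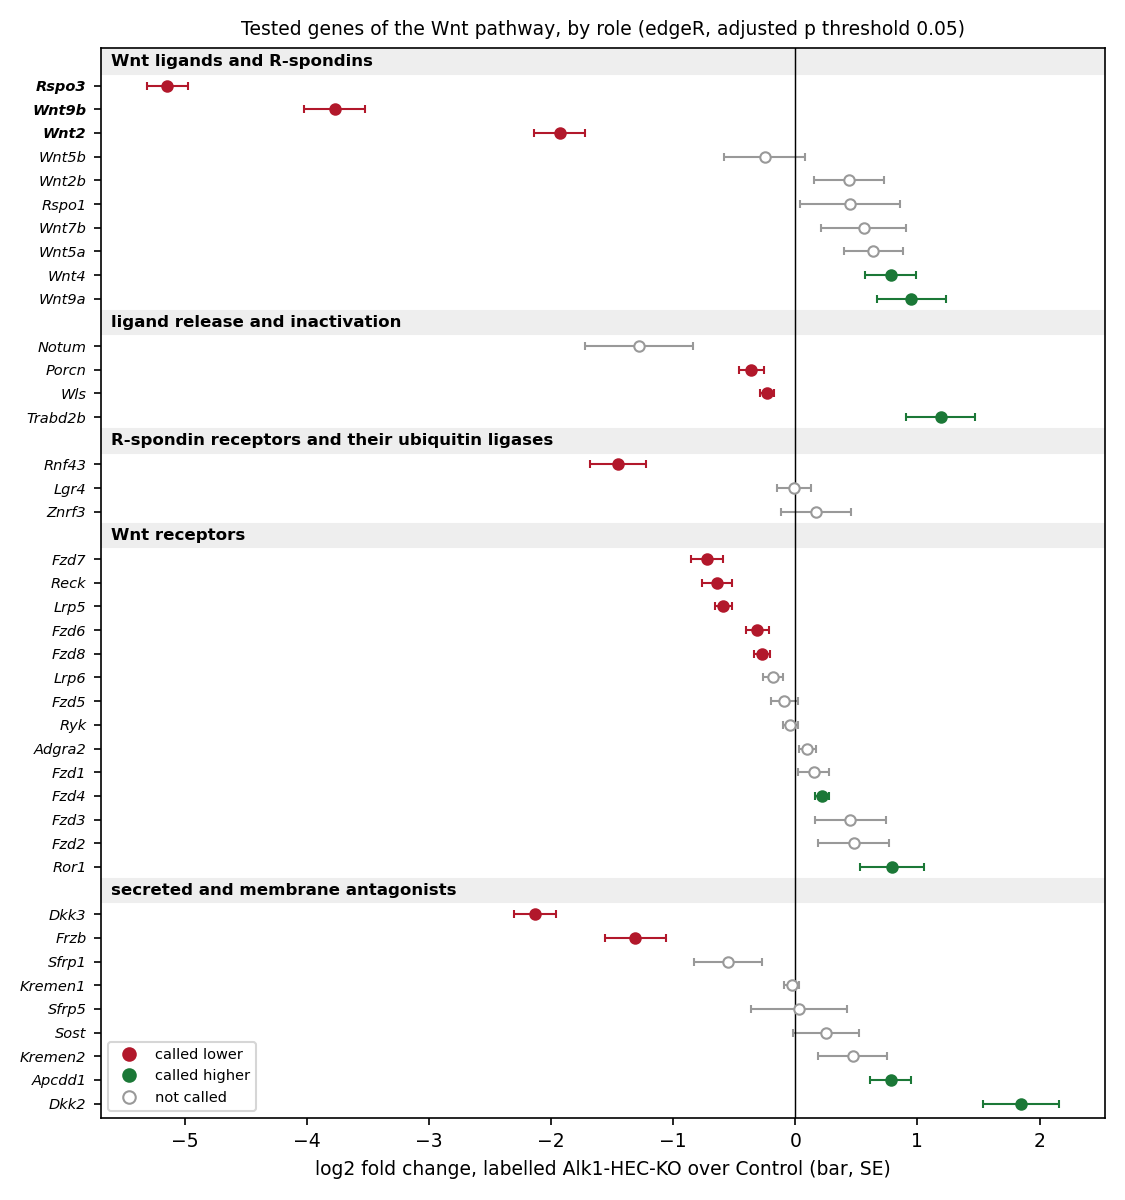
Log2 fold change of tested Wnt pathway genes, libraries labelled Alk1-HEC-KO over Control, grouped by role; points are edgeR estimates, bars the SE (n = 5 each), and filled points passed an adjusted p of 0.05. Rspo3 (-5.14), Wnt9b (-3.77) and Wnt2 (-1.93) stand at the left, while the other tested ligands lie between -0.25 and 0.95.

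Markers of the vessels that express these signals moved with them. Of 8 central vein endothelial markers 7 were lower and 1, Thbd, was not called by edgeR but was called higher by DESeq2 (median -1.57). By edgeR 9.08% of all genes tested were lower and 10.6% higher, the background for the counts of each marker list. Their summed level was 1180 to 1400 TPM in the libraries labelled Alk1-HEC-KO and 1830 to 2130 TPM in the Control libraries, and none was at 0. The log2 fold change was -2.52 ± 0.13 for Cdh13, a cadherin (adjusted p = 1.9e-07), -1.1 ± 0.07 for Ptgs1, a cyclooxygenase (6.8e-07), and -1.5 ± 0.11 for Kit, a receptor tyrosine kinase (2.4e-06). Of 11 sinusoidal markers 10 were lower and 1 was not called (median -0.5), and their sum was 12700 to 14000 TPM in libraries labelled Alk1-HEC-KO and 17800 to 18700 TPM in Control libraries. Among them Gata4, a transcription factor of the sinusoidal endothelium, had a log2 fold change of -0.74 ± 0.06 (adjusted p = 6.9e-06) and Stab1, a scavenger receptor, of -0.5 ± 0.06 (3.9e-05). F8, coagulation factor VIII, had -0.65 ± 0.07 (4.6e-05) and Oit3 -0.61 ± 0.08 (0.00012). Of 11 portal and arterial markers 4 were higher by edgeR and 6 by DESeq2, the smallest edgeR p being that of Efnb2, the ligand ephrin B2 (0.75 ± 0.12, adjusted p = 0.0012). The log2 fold changes of Rspo3 and Wnt9b were below those of all 8 central vein markers, and that of Wnt2 was above those of Cdh13, Selp and Dkk3, differences that were not tested. What part these shifts have in the fall of the 3 genes was not tested.

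The genes nearest to each of the 3 in profile were found by the mean absolute difference of centred log2 CPM over the 10 libraries, among 10228 genes. Nearest to Wnt2 was Shisa9, at a difference of 0.12, with 6.42, 4.07, 6.77, 4.75 and 4.73 CPM in the libraries labelled Alk1-HEC-KO, against 21.3, 19.2, 19.1, 23.6 and 19.6 CPM in the Control libraries. As for Wnt2, library 3 was the highest of those labelled Alk1-HEC-KO and library 1 the next. Olfm1, Rnase4, P3h2 and Ada followed, each at 0.23. For Wnt9b the nearest were Selp and Plppr5 at 0.36, then Cyp1b1 at 0.5, Ctnnal1 at 0.62 and Gulo at 0.63. Selp, the adhesion receptor P-selectin, was at 11.4, 2.82, 6.06, 3.82 and 4.29 TPM in the libraries labelled Alk1-HEC-KO, against 39.6, 73.8, 57.6, 52.5 and 43.1 TPM in the Control libraries.

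Rspo3 had no close neighbour by this measure, which includes the gap between the groups. Its log2 fold change was among the lowest of the 15043 genes tested, so few genes can lie near it. Wnt9b came nearest at 0.69, followed by Mup19 at 0.84, Selp at 0.86, Mup15 at 0.91 and Cyp2a5 at 0.94, farther than any of the 5 for Wnt2 or Wnt9b. Mup19, Mup15 and Cyp2a5 are hepatocyte genes of families whose members share reads, so their values are uncertain. Mup19 ran from 14.6 to 57.7 TPM in libraries labelled Alk1-HEC-KO and from 285 to 2910 TPM in Control libraries, while Rspo3 stayed within 121 to 146 TPM across the same Control libraries. Between the 3 genes themselves, the difference was 1.59 for Rspo3 and Wnt2 and 0.9 for Wnt2 and Wnt9b.

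**Figure D4:**
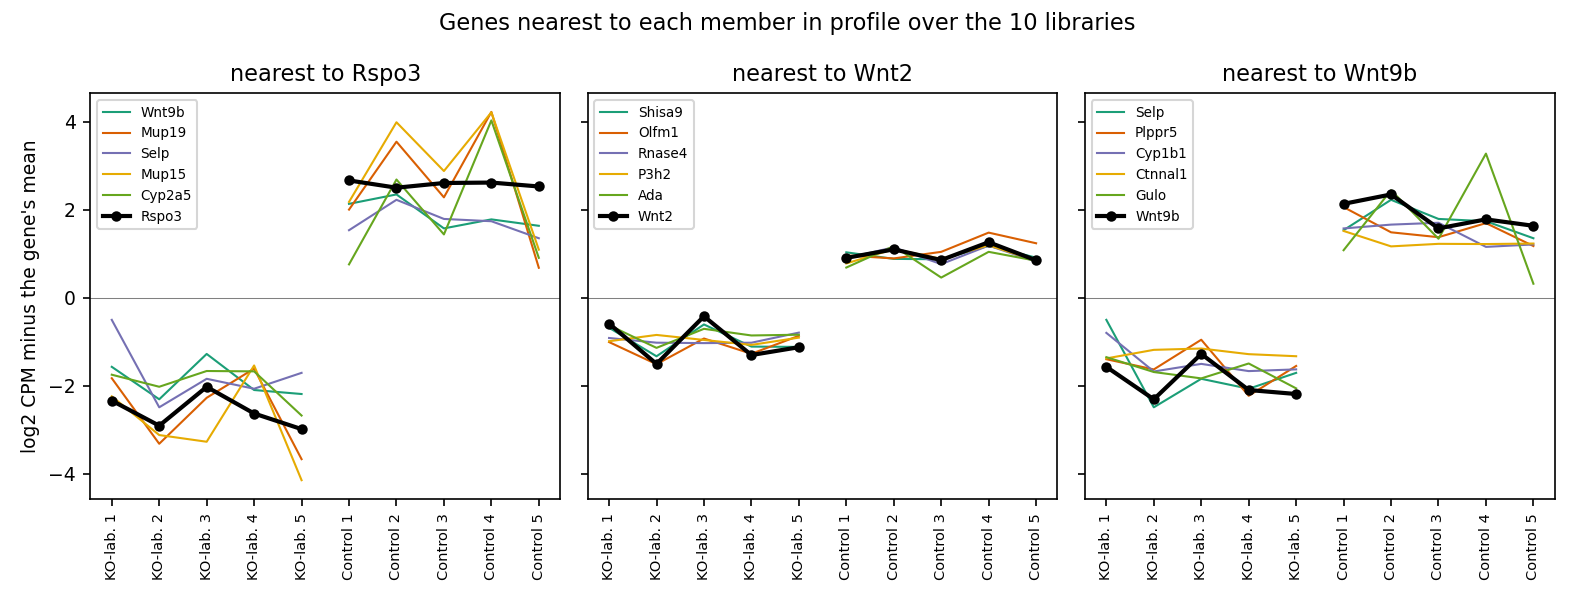
Log2 CPM of each of the 3 genes (black) and of its 5 nearest genes (colours), minus each gene's mean over the 10 libraries, with the 5 libraries labelled Alk1-HEC-KO (KO-lab.) on the left and the 5 Control libraries on the right of each panel. The lines lie close together for Wnt2 (mean differences 0.12 to 0.23), less so for Wnt9b (0.36 to 0.63), and apart for Rspo3 (0.69 to 0.94), whose Mup and Cyp2a5 neighbours vary among Control libraries.

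Genes used as markers of hepatocytes, the cells that receive these signals, were also detected in the captured cells and were grouped by zone. Of 13 pericentral genes tested 9 were lower and 1 higher (median -1.93). Of 15 periportal genes none was called in either direction (median 0.52), with 3 under an unadjusted p of 0.05 and 1 higher and 1 lower by DESeq2. Of 12 general hepatocyte genes 4 were lower by edgeR and 6 by DESeq2 (median -1.27), with 7 under an unadjusted p of 0.05. Among all genes tested 9.08% were lower and 10.6% higher by edgeR. The difference between the zones was itself not tested.

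Lect2, a secreted protein, had a log2 fold change of -4.6 ± 0.71 (adjusted p = 0.0011), and Gulo, an enzyme of ascorbate synthesis, of -3.84 ± 0.6 (0.002). Cyp1a2, a cytochrome P450, had -4.33 ± 0.74 (0.0035). The pericentral cytochrome Cyp2e1, chosen after its values were seen, was at 13.1, 17.5, 11.9, 19.7 and 11.4 TPM in the libraries labelled Alk1-HEC-KO, against 64.9, 221, 69.5, 271 and 34.2 TPM in the Control libraries. Those groups did not overlap, and Control libraries 2 and 4 stood far above the other 3. Its periportal counterpart Cyp2f2, chosen in the same way, was at 4.94, 4.6, 2.21, 4.25 and 1.73 TPM in the libraries labelled Alk1-HEC-KO, against 3.01, 4.23, 1.67, 1.65 and 1.34 TPM in the Control libraries, with overlap (0.52 ± 0.37, adjusted p = 0.36).

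Glul, glutamine synthetase, known in hepatocytes as a strictly pericentral target of these signals, was the called gene that went the other way. It was at 473, 440, 420, 506 and 407 TPM in the libraries labelled Alk1-HEC-KO, against 288, 398, 331, 300 and 290 TPM in the Control libraries (0.39 ± 0.11, edgeR adjusted p = 0.027). Among the Control libraries Glul was highest in library 2, at 398 TPM, where the general hepatocyte markers given next also had their highest sum, 2690 TPM. In Control libraries 4 and 5 Glul was at 300 and 290 TPM, at marker sums of 2480 and 783 TPM. Whether Glul follows those markers was not tested, and the cells it came from cannot be told. The Glul call was lost in 7 of 20 alternatives (adjusted p 0.054 to 0.15), among them those without library 1 or 4 labelled Alk1-HEC-KO or Control library 1, 4 or 5. Sds, a serine dehydratase, with a log2 fold change of 1.17 ± 0.42, and G6pc, glucose-6-phosphatase, with -1.79 ± 0.64, had the smallest p of the periportal genes and were not called by edgeR (adjusted p = 0.077 and 0.084).

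The amount of hepatocyte RNA differed between libraries of both groups. Summed over 12 general hepatocyte genes it was 1240, 1630, 842, 1050 and 724 TPM in the libraries labelled Alk1-HEC-KO, against 1160, 2690, 1280, 2480 and 783 TPM in the Control libraries, with Control libraries 2 and 4 highest. Alb, albumin, chosen after its values were seen, was at 400, 655, 321, 323 and 284 TPM in the libraries labelled Alk1-HEC-KO and at 352, 597, 272, 488 and 229 TPM in the Control libraries (-0.08 ± 0.33, adjusted p = 0.91). The general calls, of Apoh, Apoa2, Serpinc1 and Apob, were each lost without library 1, 3, 4 or 5 labelled Alk1-HEC-KO and without Control library 2 or 4 (adjusted p 0.058 to 0.091). The part of hepatocyte RNA in the pericentral values was not tested. Rspo3 was at 125 and 121 TPM in Control libraries 2 and 4 and at 146, 128 and 129 TPM in Control libraries 1, 3 and 5. Whether its level depends on hepatocyte RNA was not tested.

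**Figure D5:**
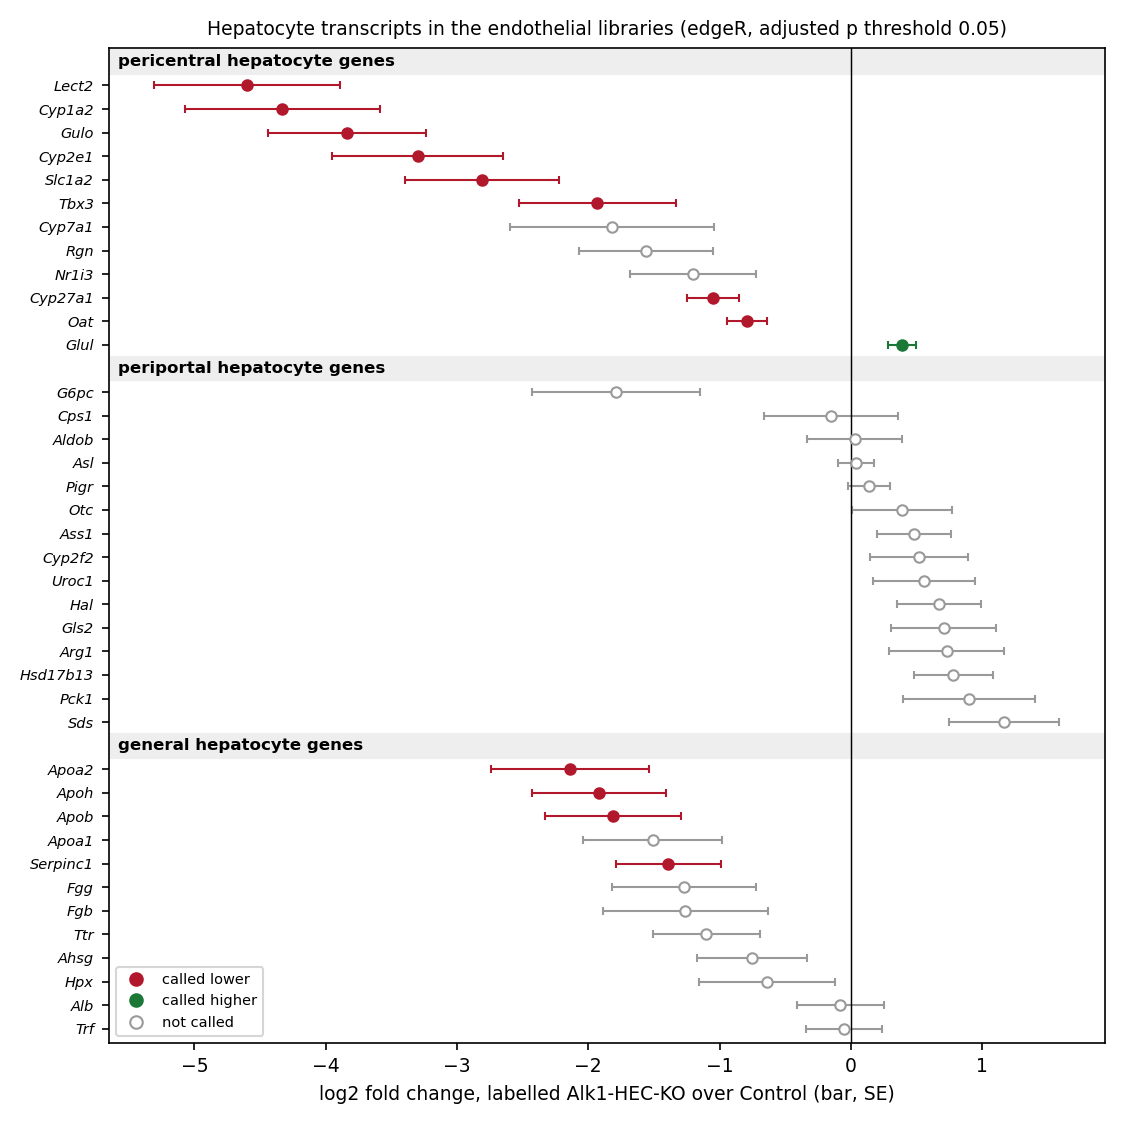
Log2 fold change of genes of hepatocyte marker lists measured in the endothelial libraries, labelled Alk1-HEC-KO over Control, for pericentral, periportal and general lists; points are edgeR estimates, bars the SE (n = 5 each), and filled points passed an adjusted p of 0.05. Pericentral genes other than Glul (0.39) lie below 0, down to -4.6 for Lect2, while no periportal gene was called.

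Other cell types in the preparations were measured by marker lists. Their calls stand beside the 9.08% of all genes tested that were lower and the 10.6% that were higher. Kupffer cell markers had no call among 8 (1 under an unadjusted p of 0.05, Marco, and 0 called by DESeq2), with sums of 500 to 1200 TPM in libraries labelled Alk1-HEC-KO and 488 to 1560 TPM in Control libraries. Of 10 stellate and fibroblast markers 2 were higher and 1 lower, with sums of 244 to 405 TPM in libraries labelled Alk1-HEC-KO and 309 to 445 TPM in Control libraries. Bile duct markers were higher for 5 of 6 genes, and their sum of 453 to 795 TPM in libraries labelled Alk1-HEC-KO did not overlap the 211 to 330 TPM of Control libraries. Lymphocyte markers summed to 34.0 to 84.3 TPM in libraries labelled Alk1-HEC-KO and 31.3 to 47.3 TPM in Control libraries, and the only lower call among 7, Cd3d, was lost without Control library 1 (adjusted p = 0.05). Without library 1 labelled Alk1-HEC-KO 2 were lower, Cd3e being added (adjusted p = 0.045). The part of these cell types in the values of Rspo3, Wnt2 and Wnt9b was not tested.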

How the data were processed

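CD146-captured liver endothelial RNA of mice was read on a BGISeq-500, per the labels, and titles gave the groups, Alk1-HEC-KO and Control, with 5 libraries each. The submitters' processing notes name Trim Galore 0.6.4 for trimming, kallisto 0.4.6 for quantification and the build GRCm38.p6. For each gene the authors deposited expected counts (kallisto's estimated counts) and TPM. How transcripts were summed to genes is not given in the sources used here. Gene symbols and coordinates came from GENCODE M21 (GRCm38), which matched 55144 of 55385 identifiers, 54487 of them also by version.

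Estimated counts were rounded and tested with edgeR 4.0.16 (R 4.3.3; robust quasi-likelihood test, TMM, filterByExpr with a minimum count of 10, Benjamini-Hochberg adjustment over 15043 genes, threshold 0.05). Tested genes held 99.87 to 99.9% of each library's counts. SEs were derived from the edgeR test, as the absolute log2 fold change over the square root of its F statistic. CPM used TMM-scaled library sizes, and means are given ± SD. Differences between the 3 genes and family shares used exact two-sided permutation tests over all assignments of the libraries, on log2(TPM + 0.1) or percent values. Depth was nearly equal in all libraries, and precision falls with low counts. Libraries of a group differed by more than sampling noise (chi-square per degree of freedom 11.58 to 33.03), so none was counted as a repeat.

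The 3 genes and all gene lists were chosen with earlier results of these data known. Other genes named were up to 4 called members of a list with the smallest p (where none was called, 2), other Wnt ligands and R-spondins that were called or averaged at least 1 TPM in a group, and the 5 nearest profiles of each gene, with predicted genes and pseudogenes left out. Genes outside this rule are said to be so or complete a count. Axin2, Lgr4, Lgr5, Lgr6, Notum, Fzd6, Fzd4, Ror1, Thbd, Marco, Mcam, Cd3e, Tbx3 and the genes with no counts were added after their values were seen. Alternatives were DESeq2 1.42.0, limma 3.58.1 on log2 TPM, other scalings, filters and transcript length offsets, the replicate number as a block, and libraries left out. The procedure was tested on simulated data. A gene that the rule takes is not reported here, nor drawn in the plots, though list counts and medians include it.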

Additional observations from a re-analysis of the deposited data

Results flagged for a closer look

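Among 42 groups of 5 libraries, for the levels of the genes described and the summed markers, 2 held a library far from the other 4 (a gap of over 0.71 of the group's range), and chance gives about 1 in 20 groups. Wnt9a was at 1.11 TPM in Control library 2, against 0.403 to 0.501 TPM in the other Control libraries. Lymphocyte markers summed to 84.3 TPM in library 2 labelled Alk1-HEC-KO, against 34.0 to 47.7 TPM in the other libraries of that label. None of Rspo3, Wnt2 and Wnt9b had such a library in either group.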

How the results depend on the processing

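The falls of Rspo3, Wnt2 and Wnt9b kept their direction and stayed past the threshold in all 20 alternatives run for each. The log2 fold change lay between -5.31 and -4.76 for Rspo3 (adjusted p up to 9.3e-06), between -2.1 and -1.83 for Wnt2 (up to 0.0053) and between -3.96 and -3.41 for Wnt9b (up to 0.001). Leaving out each library in turn gave -5.31 to -5.05 for Rspo3, -2.1 to -1.83 for Wnt2 and -3.96 to -3.64 for Wnt9b. The 3 differences between genes and both family shares kept their direction in 13 alternatives each, with exact permutation p up to 0.036. Replicate numbers were not taken as pairs, since not every same-numbered correlation of deviations exceeded 0.1 (-0.2, 0.35, 0.01, 0.11 and 0.28), which does not exclude pairing of some libraries; 2 of 5 libraries labelled Alk1-HEC-KO correlated best with their own number. With the replicate block the values were -5.17, -1.98 and -3.78, and 2567 genes were called over all genes tested, against 2959 without it. Leaving out Control libraries 4 and 5 together gave 1940 called genes, with fewer samples, and single libraries left out gave 2315 to 2870. Called members of the gene lists numbered 75, and 64 to 86 over the alternatives. Of all calls 46.2% were lower, against 34.2% with library size alone and 27.1 to 27.4% with limma on log2 TPM; the cause was not tested. The smallest groups of counts behind the 3 genes, 119 to 231 for Rspo3 in libraries labelled Alk1-HEC-KO, limit the precision of its level there.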
